A study of Mus musculus with 2 samples.

Results

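The circadian clock genes of the newborn mouse adrenal gland were examined as a set of 10 genes chosen by symbol: Clock, Arntl and Npas2 of the positive limb, Per1, Per2, Per3, Cry1 and Cry2 of the negative limb, and the D-box factors Dbp and Nfil3. All 10 matched by Ensembl identifier to 1 row each among the 43346 Ensembl genes quantified. The libraries were total RNA-seq of adrenal tissue from mice of strain B6NCrl at postnatal day 0. There were 2 libraries, each from 10 ng of RNA of 1 pup (2 glands pooled), and the labels name the same pregnant female number, 1, for each pup and no sex. The sources used here name no genotype, treatment or time of day, and the pups form 1 group. Depth was 41510071 estimated counts for pup 1 and 40800539 for pup 2. Each pup has only 1 library, so differences between pups are given without a p-value or a replicate check.

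The circadian clock is a feedback loop that runs in most mammalian cells. The proteins CLOCK and ARNTL (also called BMAL1), or NPAS2 in place of CLOCK, pair and bind E-box sequences, from which they activate the Per and Cry genes. The PER and CRY proteins then gather and repress that pair. A side loop of REV-ERB and ROR nuclear receptors acts on Arntl through RORE sequences, and DBP, an activator, and NFIL3, a repressor, compete for D-box sequences. In the adult adrenal cortex this clock is known for gating the response to ACTH and so the daily rhythm of glucocorticoids.

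Letters that match the binding sequences of the loop were found near the starts of several members, and these stretches are shown so that the matches can be read. A match is a description of the sequence and not a measured site. RefSeq promoter windows (GRCm38.p6, 250 bases before to 50 bases after an annotated start) were matched for 9 of the 10 members, in 13 windows, and Per2 had no entry. Searched on both strands were the E-box CACGTG, the E'-box CACGTT, the D-box TTATGTAA or TTACGTAA, the RORE core TAGGTCA or TGGGTCA, and the CRE TGACGTCA. The capitals below mark matches, each sequence is written on the strand of its gene, and no marked matches overlap. Per1, Cry1 and Per3 are shown for the 250 bases before the start. The Per1 stretch (chr11:69098699-69098948, plus strand) holds an E-box 166 bases before the first of 2 RefSeq starts. This stretch lies inside the span of the longer GENCODE M21 transcript Per1-202, and the window of the second start held none of the 5 motifs. The Cry1 stretch (chr10:85185055-85185304, minus strand) holds an E'-box and an E-box that begin 79 and 60 bases before the start. The Per3 stretch (chr4:151044666-151044915, minus strand) holds 2 D-boxes, at 205 and 158 bases. For Nfil3 a RORE core lies in reverse 12 bases before the RefSeq start, inside the longer GENCODE M21 transcript, and 30 bases round it are shown (chr13:52981033-52981062, minus strand). For Arntl a RORE core begins at base 31 of the transcript from the second of 2 annotated starts, and again 30 bases are shown (chr7:113207530-113207559, plus strand).
Per1: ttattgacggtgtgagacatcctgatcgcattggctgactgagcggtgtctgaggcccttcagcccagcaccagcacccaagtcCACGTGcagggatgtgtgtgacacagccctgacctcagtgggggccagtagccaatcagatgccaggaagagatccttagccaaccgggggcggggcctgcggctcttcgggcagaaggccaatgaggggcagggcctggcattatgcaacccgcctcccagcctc
Cry1: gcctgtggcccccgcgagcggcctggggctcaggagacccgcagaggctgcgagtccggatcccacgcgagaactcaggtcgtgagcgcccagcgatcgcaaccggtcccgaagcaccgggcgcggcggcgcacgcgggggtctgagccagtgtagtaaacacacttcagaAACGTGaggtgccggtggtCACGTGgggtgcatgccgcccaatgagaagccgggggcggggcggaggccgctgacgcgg
Per3: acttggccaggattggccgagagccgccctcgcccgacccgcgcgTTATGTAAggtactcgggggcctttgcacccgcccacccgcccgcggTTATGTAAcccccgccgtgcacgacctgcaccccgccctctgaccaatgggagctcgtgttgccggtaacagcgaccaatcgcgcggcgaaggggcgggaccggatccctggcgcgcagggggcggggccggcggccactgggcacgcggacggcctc
Nfil3: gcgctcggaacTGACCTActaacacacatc
Arntl: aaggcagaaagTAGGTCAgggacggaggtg
Among all 32851 windows of the table, 7.15% held the E-box, 4.68% the E'-box, 1.06% a D-box, 6.45% a RORE core and 1.79% the CRE. Counted over genes with 1 window or more, the shares were 8.09%, 5.44%, 1.23%, 7.35% and 2.03%. Of the 9 members, 2 held an E-box (Per1 and Cry1), 2 an E'-box (Cry1 and Cry2), 1 a D-box (Per3), 2 a RORE core (Nfil3 and Arntl) and 0 the CRE. The windows of Clock, Npas2 and Dbp held none of these letters, which says nothing of sites elsewhere.

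**Figure D1:**
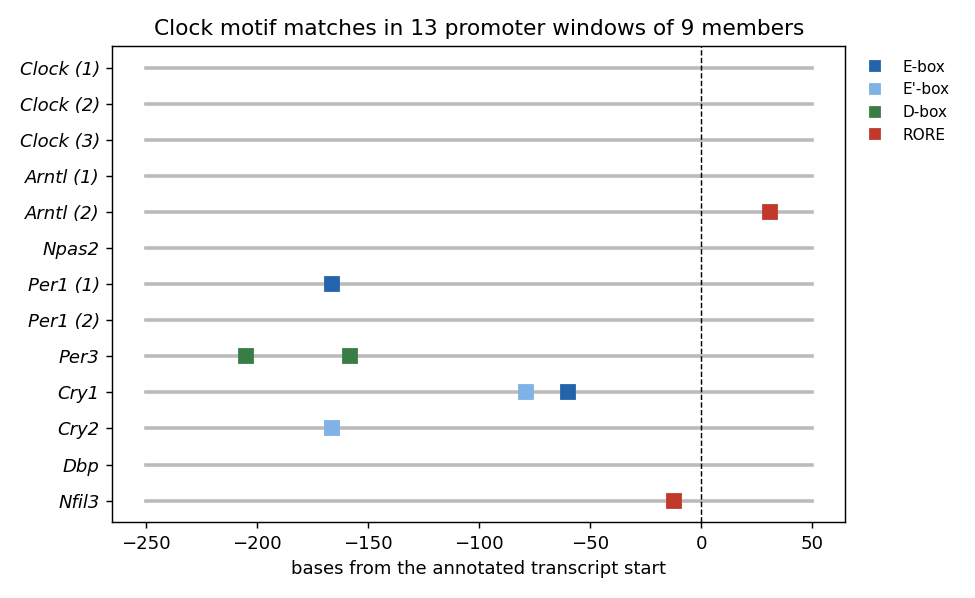
Motif matches in 13 promoter windows of 9 clock members. The horizontal axis gives bases from the annotated transcript start and each grey line is 1 window, numbered where a gene has several. Squares mark the first base of a match; the 2 D-boxes of Per3 lie 205 and 158 bases before the start.

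All 10 clock genes were detected in both pups. Levels are given as TPM, a share of all transcripts in a library, which is scaled by transcript length and so allows levels of different genes to be set side by side. Each of the 10 reached TPM 1 in both pups, against 32.9% of all Ensembl genes. Their counts ran from 219 to 2610 per library, and the SD of the quantifier's posterior, which covers the division of reads among similar genes, was at most 0.593% of the count. Where exons overlap a gene on the other strand, reads cannot be told apart without strand information, which the sources used here do not give. Such overlap covers 18.0% of the annotated exon bases of Dbp (with Sphk2), 4.67% of Cry2 and 0.44% of Arntl.

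In the positive limb Arntl stood above its partners. Arntl (ENSMUSG00000055116.7, chromosome 7, 113207465 to 113314126, plus strand, mm10), the partner shared by CLOCK and NPAS2, stood at 5.35 TPM (pup 1) and 9.04 TPM (pup 2), or 7.20 ± 2.61 (SD, n = 2). Clock (ENSMUSG00000029238.8, chromosome 5, 76209868 to 76304792, minus strand) was the lowest member of the set by mean level, with 1.5 and 2.46 TPM, or 1.98 ± 0.68 (SD, n = 2). Npas2, its paralog (ENSMUSG00000026077.11, chromosome 1, 39193731 to 39363236, plus strand), had 2.89 and 2.09 TPM, or 2.49 ± 0.57 (SD, n = 2). Npas2 was thus the only member with the lower TPM in pup 2. The order of the paralogs changed between the pups. The level of Npas2 was 1.93 times that of Clock in pup 1 and 0.85 times in pup 2. The quantifier's TPM intervals of the paralogs were apart in pup 1 (2.44 to 3.61 for Npas2 and 1.35 to 1.62 for Clock). They overlapped in pup 2 (1.74 to 2.79 and 2.23 to 2.61). These intervals of Npas2 include its short transcripts. The main transcript, Npas2-201, held 95.7% and 97.0% of the Npas2 counts. Its own interval was 1.72 to 2.14 TPM in pup 1, above that of Clock, and 1.335 to 1.752 TPM in pup 2, below that of Clock. Arntl kept a steadier ratio to Clock, 3.57 in pup 1 and 3.67 in pup 2. With transcripts under 1000 bases left out, Npas2 rather than Clock had the lowest mean level, 1.76 against 1.98 TPM.

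In the negative limb Cry2 and Per1 were the highest. Cry2 (ENSMUSG00000068742.7, chromosome 2, 92403646 to 92434043, minus strand), a cryptochrome repressor, reached 11.97 TPM (pup 1) and 21.97 TPM (pup 2), or 16.97 ± 7.07 (SD, n = 2). Cry1 (ENSMUSG00000020038.9, chromosome 10, 85131700 to 85185064, minus strand), the other cryptochrome, had 6.97 and 9.27 TPM, or 8.12 ± 1.63 (SD, n = 2). The level of Cry2 was 1.72 and 2.37 times that of Cry1. Per1 (ENSMUSG00000020893.13, chromosome 11, 69095217 to 69109960, plus strand), a period gene that glucocorticoid and cAMP signals can also induce, had 10.74 and 19.55 TPM, or 15.1 ± 6.23 (SD, n = 2). Per3 (ENSMUSG00000028957.8, chromosome 4, 151003652 to 151044665, minus strand) had 4.16 and 6.12 TPM, or 5.14 ± 1.39 (SD, n = 2). Per2 (ENSMUSG00000055866.9, chromosome 1, 91415982 to 91459324, minus strand), a core repressor of the loop, had 2.51 and 4.14 TPM, or 3.33 ± 1.15 (SD, n = 2). The period genes held the order Per1, Per3, Per2 in both pups, and Per1 exceeded Per2 by 4.28 times in pup 1 and 4.72 times in pup 2. The quantifier's intervals of Per3 and Per2 overlapped in pup 2 (5.68 to 6.685 and 3.87 to 5.97 TPM). The interval of Per2 includes a transcript of 231 bases with 0 counts, whose own interval reached 1.84 TPM in pup 2. Per2-201, which held all counts of Per2, had an interval of 3.78 to 4.36 TPM in pup 2, below that of Per3.

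The D-box activator stood above the D-box repressor. Dbp (ENSMUSG00000059824.6, chromosome 7, 45705088 to 45710203, plus strand), a PAR bZIP activator and direct clock output, reached 30.82 TPM (pup 1) and 58.95 TPM (pup 2), or 44.9 ± 19.9 (SD, n = 2). It was the highest member in both pups. Nfil3 (ENSMUSG00000056749.7, chromosome 13, 52967209 to 52981073, minus strand), the repressor also known as E4BP4, had 9.56 and 10.78 TPM, or 10.2 ± 0.86 (SD, n = 2). The level of Dbp was 3.22 times that of Nfil3 in pup 1 and 5.47 times in pup 2. With transcripts under 1000 bases left out, an alternative chosen after seeing the data, these ratios were 1.76 and 3.60. The reads of the left-out transcripts are dropped and not reassigned. For Dbp 1149 of 1546 counts remained in pup 1 and 2145 of 2610 in pup 2, while Nfil3 lost none.

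By mean TPM the order was Dbp, Cry2, Per1, Nfil3, Cry1, Arntl, Per3, Per2, Npas2 and Clock. Of the 9 neighbouring pairs in that order, 7 stood the same way in both pups, and the exceptions were Per2 with Npas2 and Npas2 with Clock. The ranges over the pups overlapped in 6 pairs and were apart for Dbp and Cry2, Nfil3 and Cry1, and Per3 and Per2. The last pair was only just apart, with Per3 at 4.16 TPM in pup 1 and Per2 at 4.14 TPM in pup 2. The ranges include the higher TPM that most members had in pup 2. Within each library the quantifier's intervals were apart in both pups for 3 pairs, Dbp and Cry2, Nfil3 and Cry1, and Arntl and Per3. With transcripts under 1000 bases left out, Cry2 stood at 11.08 and 20.37 TPM and Dbp at 16.87 and 38.78 TPM, so the ranges of that pair then overlapped. On that measure Npas2 also fell below Clock by mean TPM, to the lowest place. Among all genes with TPM above 0, Dbp lay at percentile 85.1 in pup 1 and 89.8 in pup 2, and Clock at percentile 40.5 and 46.6. The median over the 10 members was 6.16 TPM in pup 1 and 9.15 TPM in pup 2.

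**Figure D2:**
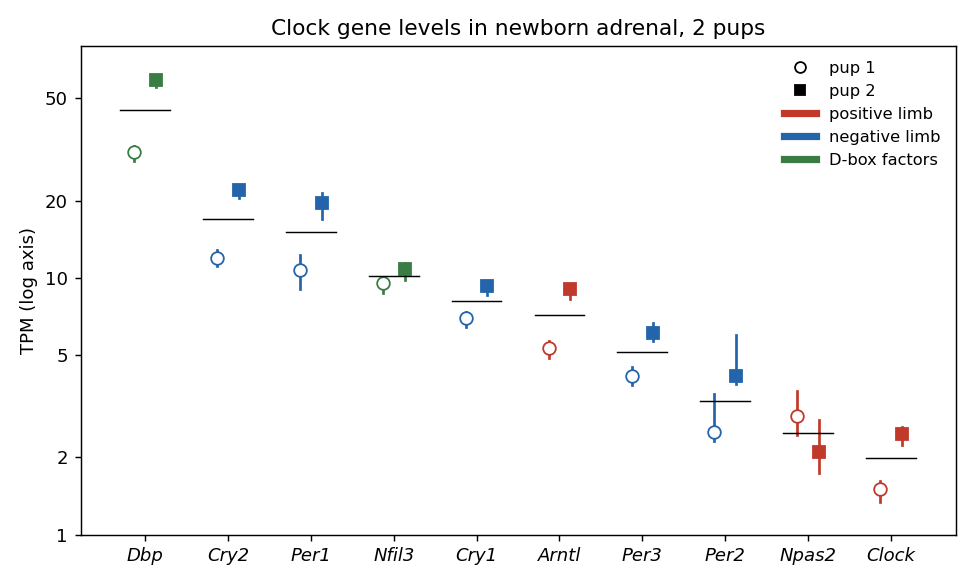
TPM of the 10 clock members on a log axis, with open circles for pup 1, filled squares for pup 2, vertical lines for the quantifier's TPM interval and a black bar at the mean. Dbp is highest at 30.82 and 58.95 TPM, and Npas2 is the only member lower in pup 2.

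By median and by summed TPM the negative limb stood above the positive limb in both pups. Single genes of the limbs overlapped. Arntl of the positive limb (5.35 and 9.04 TPM) lay above Per3 (4.16 and 6.12) and Per2 (2.51 and 4.14) in each pup. The median over the 5 negative genes was 6.97 TPM in pup 1 and 9.27 TPM in pup 2, and that over the 3 positive genes was 2.89 and 2.46 TPM. The log2 ratio of the medians was 1.27 for pup 1 and 1.91 for pup 2, averaging 1.59 ± 0.46 (SD, n = 2). Summed TPM gave 36.35 against 9.74 in pup 1 and 61.05 against 13.59 in pup 2, with log2 ratios of 1.90 and 2.17. Genes are not replicates of a limb, so the spread between the pups is the only error given. Npas2 was the median gene of the positive limb in pup 1, and without it the log2 ratio was 1.03 for pup 1 and 0.69 for pup 2, averaging 0.86. Without Npas2 the median of the negative limb thus still stood higher in each pup, but the pup with the larger ratio was pup 1.

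Clock, Arntl, Cry1 and Nfil3 had only 1 transcript in the annotation used, so their transcript shares were fixed. Of the 6 members with several annotated transcripts, all 6 had the same leading transcript in pup 1 and pup 2. That transcript held over 50% of the TPM of its gene in each pup for 5 of the 6, the exception being Per1. Of the 2 transcripts annotated for Per2, 1 was detected. Cry2-201 held 79.4% of Cry2 in pup 1 and 68.3% in pup 2, and Per3-201 held 70.4% and 75.5% of Per3. Of the further Per3 transcripts, Per3-204, a processed transcript, held 18.6% and 9.20%, and Per3-203, annotated for nonsense-mediated decay, 6.66% and 8.60%. Dbp-201, the Dbp transcript that GENCODE M21 keeps, held 52.5% and 62.2% of Dbp, and 3 further detected transcripts of the M4 annotation that M21 does not list held the other 47.5% and 37.8%.

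The TPM of Per1 was assigned to several transcripts with wide intervals. Per1-202 (ENSMUST00000101004.4), which begins at position 69095217 and so upstream of both RefSeq starts, held 34.3% of the TPM of Per1 in pup 1 and 36.2% in pup 2. Per1-201 held 22.5% and 18.1%, and Per1-206 17.6% and 16.7%. In pup 1 the quantifier's TPM intervals were 2.87 to 4.25 for Per1-202, 0.73 to 4.32 for Per1-201, 0.53 to 3.95 for Per1-204 and 1.7e-05 to 3.37 for Per1-206. These overlap, so the division of Per1 among its transcripts was not resolved. Short annotated fragments carried much TPM on few counts. Per1-204, of 496 bases, held 20.9% and 24.7% of the TPM but 2.57% and 3.22% of the counts of the gene. Npas2-203, of 484 bases, held 32.6% and 25.03% of the TPM but 4.32% and 3.01% of the counts, which were 14.7 and 6.60 estimated counts. The short transcripts of Dbp were not low in counts, as 1 of 801 bases held 19.2% and 15.6% of the counts of the gene. With transcripts under 1000 bases left out, Npas2 stood at 1.95 and 1.57 TPM, Per1 at 8.49 and 14.71 TPM and Dbp at 16.87 and 38.78 TPM. Npas2 remained above Clock in pup 1 and below it in pup 2 on that measure, but its mean over the pups was then the lower.

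**Figure D3:**
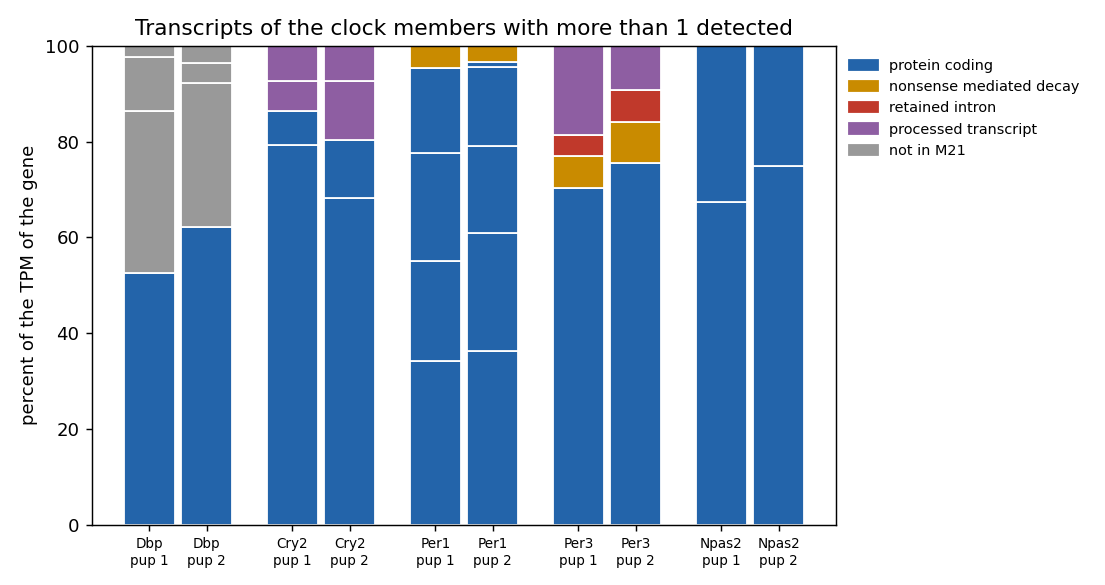
Share of the TPM of each gene held by its transcripts, for the 5 members with more than 1 detected, in pup 1 and pup 2. Each segment is 1 transcript, coloured by its GENCODE M21 type; Per1 is split among several protein-coding transcripts, the largest at 34.3% and 36.2%.

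Between the pups the 10 clock members differed by less than 2-fold, as most genes did. Here counts were scaled by TMM, a trimmed mean that sets the bulk of genes level, and ratios are log2 of pup 2 over pup 1 with exact binomial 95% intervals that cover counting error only. None of the 10 members lay over 2-fold apart, against 15.8% of the 18670 genes whose mean count was 10 or more. All members had a mean count of 100 or more, and of such genes 9.13% exceeded 2-fold, 2.78% on the side of pup 2 and 6.35% on that of pup 1. At over 1.5-fold there were 2 members, Npas2 and Dbp, against 33.9% of all genes tested and 26.0% of those at 100 counts or more. By sign 8 of 10 members were higher in pup 2, against 50.2% and 51.2%. The median over the members was 0.33 on the log2 scale and that over all genes tested was 0.0020. The interval lay above 0 for 7 members, against 34.8% of all genes tested and 40.0% at 100 counts or more. It lay below 0 for 2 members, against 34.8% and 37.9%. An interval without 0, as 9 members had, was thus common at this depth, with 69.6% and 77.9% of genes.

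Dbp had the highest ratio of the set. It had 1546 counts in pup 1 and 2610 in pup 2, a log2 ratio of 0.67 (0.58 to 0.76) or 1.59-fold after scaling. Per1 (1393 and 1956 counts) had a log2 ratio of 0.40 (0.31 to 0.51), Cry2 (1624 and 2274 counts) 0.40 (0.31 to 0.49), Per2 (581 and 778 counts) 0.34 (0.18 to 0.49) and Per3 (889 and 1095 counts) 0.22 (0.087 to 0.35). These 4 negative limb genes lay on the side of pup 2. Cry1 (820 and 886 counts) had a log2 ratio of 0.03 with an interval of -0.11 to 0.17, which covers 0. Clock (448 and 594 counts) and Arntl (605 and 831 counts) also lay on the side of pup 2, at 0.32 (0.14 to 0.50) and 0.37 (0.22 to 0.53).

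Npas2 and Nfil3 were the members higher in pup 1. Npas2 had 340 counts in pup 1 and 219 in pup 2, a log2 ratio of -0.72 (-0.97 to -0.47), or 1.65-fold higher in pup 1. Nfil3 had 743 and 681 counts and a log2 ratio of -0.21 (-0.36 to -0.06). TPM gave higher ratios than scaled counts, the median of the log2 TPM ratio over all genes tested being 0.39. The TPM of Nfil3 was higher in pup 2 while its share of the scaled counts was lower. On TPM 9 of the 10 members were higher in pup 2, against 72.1% of all genes tested. Scaling by the spike-in counts shifted the log2 median of all genes tested by 2.57. It put all 10 members higher in pup 2, so the directions here are relative to the bulk of genes.

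**Figure D4:**
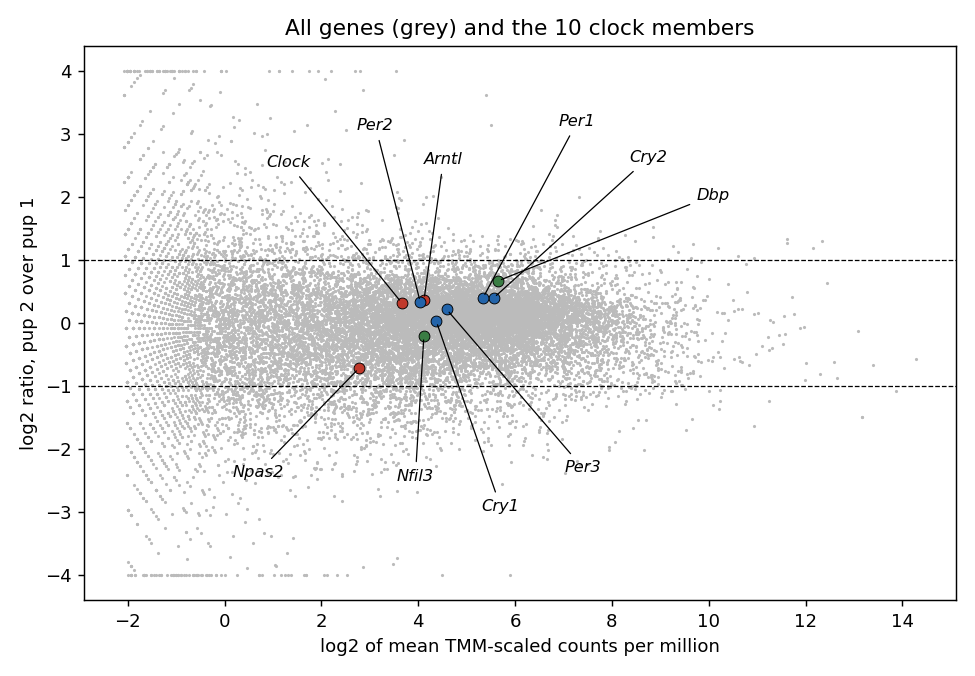
Log2 ratio of pup 2 over pup 1 against the log2 mean of TMM-scaled counts (CPM), for 18670 genes in grey and the 10 members in colour (red positive limb, blue negative limb, green D-box factors). Dashed lines mark 2-fold, ratios beyond 4 are drawn at the edge, and all 10 members lie between -0.72 and 0.67.

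Of 36 other clock genes, 34 reached TPM 1 in both pups, against 32.9% of all Ensembl genes. On scaled counts 29 stood higher in pup 2 and 7 stood higher in pup 1, against 50.2% of all genes tested on the side of pup 2. The counting interval lay above 0 for 21, below 0 for 6 and covered 0 for 9. Of all genes tested, 34.8% lay above 0 and 34.8% below. Their median log2 ratio was 0.21, and 5 lay over 2-fold higher in pup 2, against 6.03% of all genes tested. Those 5 were Rora, Nr1d1, Fbxl21, Hsd3b6 and Lonrf3. None lay over 2-fold higher in pup 1, against 9.76% of all genes tested.

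The nuclear receptors of the side loop included 2 of those 5 genes. Rora, an activator through ROREs, stood at 23.45 TPM (pup 1) and 70.29 TPM (pup 2), and its log2 ratio of scaled counts was 1.20 (1.14 to 1.27). Nr1d1, the REV-ERB alpha repressor, had 18.05 and 48.83 TPM and a log2 ratio of 1.07 (0.99 to 1.15), though 8.55% of its annotated exon bases overlap Thra on the other strand. Its paralog Nr1d2 had 11.09 and 18.99 TPM and a log2 ratio of 0.37. In contrast Rorb had 1.02 and 0.82 TPM and a log2 ratio of -0.75 (-0.99 to -0.51), so Rora and Rorb lay on opposite sides.

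Among 6 further clock transcription factors, all reached TPM 1 in both pups, against 32.9% of all genes, and the counting interval of 1 lay above 0, against 34.8% of genes tested. That gene was Bhlhe40, a bHLH repressor of E-box genes, with 9.00 and 22.77 TPM and a log2 ratio of 0.87. Tef, a PAR bZIP relative of Dbp, led the group with 18.68 and 26.03 TPM, and Hlf, the third of that family, had 3.42 and 5.97 TPM. The intervals of Tef and Hlf covered 0, while that of Dbp did not. Arntl2, the paralog of Arntl, had 1.01 and 1.73 TPM, and Arntl exceeded it by 5.30 and 5.23 times.

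Kinases and ubiquitin ligases that set the turnover of PER and CRY were all at TPM 1 or above, against 32.9% of all genes. On scaled counts 5 of 8 were higher in pup 2 and 3 higher in pup 1, against 50.2% of genes tested on the side of pup 2. The casein kinase genes Csnk1d (35.51 and 57.46 TPM) and Csnk1e (45.47 and 47.24 TPM), which phosphorylate PER proteins, and Csnk2a1 (27.70 and 47.79 TPM) were the most abundant by mean TPM. Fbxl21, which encodes an F-box protein that acts on CRY proteins, had 80 and 231 counts and a log2 ratio of 1.44 (1.07 to 1.83). Of 11 cofactors of the clock complexes, 9 stood on the side of pup 2 and 2 on that of pup 1, against 50.2% of genes tested on the side of pup 2. Their log2 ratios lay between -0.33 and 0.30. The intervals of 2 of the 11 covered 0, as did those of 5674 of the 18670 genes tested. Nono (85.70 and 123.1 TPM), Tipin (67.98 and 89.97 TPM) and Ncor1 (53.91 and 89.45 TPM) led the cofactors.

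The 6 clock output genes had log2 ratios of scaled counts above 0, against 50.2% of all genes tested. The counting interval lay above 0 for 5, against 34.8% of all genes tested. The exception was Usp2, at a log2 ratio of 0.06 with an interval of -0.10 to 0.22 (6.70 and 11.02 TPM). Nampt, an enzyme of NAD synthesis, had 12.44 and 19.54 TPM, and the log2 ratio of the cell cycle kinase gene Wee1 was 0.34. Hsd3b6, a steroid dehydrogenase known as clock-controlled in the aldosterone-making zone, had 80 and 308 counts and a log2 ratio of 1.85 (1.501 to 2.23). It has close paralogs, and reads may be shared with them. The SD of the quantifier's posterior was 1.84% of the Hsd3b6 count in pup 1 and 0.41% in pup 2. Lonrf3 was under TPM 1 in both pups, with 18 and 39 counts and a log2 ratio of 1.01 (0.19 to 1.92).

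**Figure D5:**
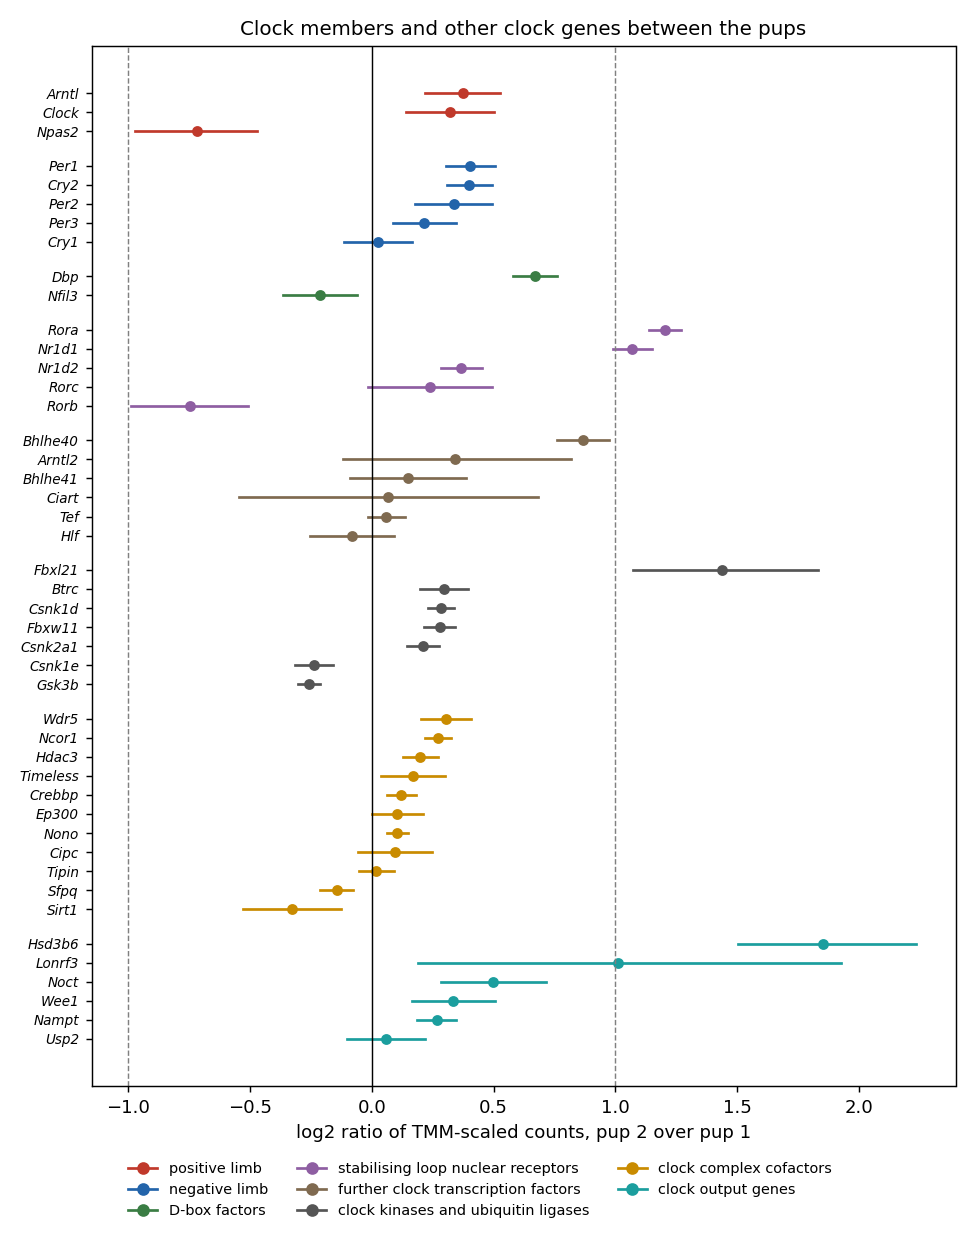
Log2 ratio of TMM-scaled counts, pup 2 over pup 1, for the 10 members and other clock genes by group, with exact binomial 95% intervals for counting error as lines. The solid line is the median of all genes tested and dashed lines mark 2-fold. Points beyond 2-fold belong to 5 genes, all among the others, and all 5 are higher in pup 2.

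Cell type markers also differed between the pups, and in bulk tissue fewer cells of a type and less RNA per cell cannot be told apart. Markers of both parts of the adrenal were present: all 7 steroidogenic markers and all 8 chromaffin markers reached TPM 1 in both pups. The 7 steroidogenic markers were all higher in pup 2 (median log2 ratio 1.18, summed TPM 6435 and 17156), on the side of 8 of the 10 members and 29 of the 36 other clock genes. The 6 sympathetic neuron markers (median -1.99, summed TPM 1144 and 368) and the 6 glia markers (median -0.92, 175 and 91.4) were all higher in pup 1, on the side of Npas2, Nfil3 and 7 of the 36 other clock genes. The chromaffin markers were divided, 5 higher in pup 2 and 3 in pup 1. Of the other markers, all 6 of liver (2809 and 2166 TPM), all 6 of stroma (2224 and 1881 TPM) and all 4 of stomach (123 and 4.95 TPM, with Gkn1 at 0 counts in pup 2) were higher in pup 1, while all 5 of skeletal muscle (57.4 and 229 TPM, with Myh1 at 0 counts in pup 1) and 5 of 6 of endothelium (142 and 265 TPM) were higher in pup 2. Of the leukocyte markers 4 of 6 (917 and 577 TPM) and of the erythroid markers 3 of 5 (14027 and 10551 TPM) were higher in pup 1. Kidney markers summed to 1.92 and 10.8 TPM, and the 3 with a mean count of 10 or more were all higher in pup 2. Umod was near the floor, with 0 counts in pup 1 and 3 in pup 2. The part of any cell type in the ratios of the clock genes was not tested.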

How the data were processed

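Total RNA-seq was analysed from 2 adrenal libraries, 1 per newborn pup, that form 1 group by the labels. Per the labels, RNA was extracted with Ambion mirVana and spike-ins were added. The authors deposited, per library, gene and transcript tables with expected counts, posterior mean counts, TPM scaled over all rows, FPKM and the isoform percent, plus bounds of the TPM interval, which are the quantifier's signal range. Per the text files deposited with the libraries, build mm10 and GENCODE M4 were used; the sources used here name no aligner, quantifier, version or strand handling. Of 69691 rows, 97 spike-ins and 26248 numbered rows were left out; they held 0.0138% and 2.65e-05% of counts in pup 1 and 0.0025% and 9.59e-05% in pup 2.

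Symbols, coordinates and transcript types came from GENCODE M21, matched by Ensembl identifier. Expected counts were rounded and scaled by TMM in edgeR 4.0.16 (R 4.3.3) over all Ensembl genes. Log2 ratios used a pseudocount of 0.5, a mean count minimum of 10 and exact (Clopper-Pearson) binomial intervals. These cover counting error only and treat each read as independent. Reads that lack molecular identifiers may repeat a molecule, so the intervals may be too narrow even for that error. Alternatives were DESeq2 1.42.0 size factors, total or spike-in counts, other minimums and pseudocounts, posterior means, FPKM, TPM, removal of a cubic trend on length and GC content, and leaving out each pup. Scripts (python 3.11.15) were tested on simulated data. The members and gene lists were chosen with earlier results of these data known. All members are named, and of the other clock lists the 3 most abundant genes, those under TPM 1 in both pups and those over 2-fold apart; Rorb and Arntl2 were named in addition after their values were seen. The values of 1 listed gene are not reported here, though the list counts include it. With 2 libraries no likeness of pattern between genes was computed.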

Additional observations from a re-analysis of the deposited data

How the results depend on the processing

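No paired analysis was possible because both pups belong to 1 group. With TPM minimums of 0.5 or 5, 10 and 6 members reached the minimum in both pups. The log2 ratio of the negative over the positive limb was 1.59 and stayed above 0 under every alternative run: it was 1.07 from means of log2(TPM + 1), 0.86 without Npas2, and 1.27 to 1.91 on leaving out each pup. On leaving out each pup the median level was 6.16 to 9.15 TPM. Between the pups the members' median log2 ratio was 0.33 with TMM and 0.35 with DESeq2 size factors. It was 0.72 on deposited TPM and 2.90 with spike-in counts, where the median of all genes tested was 0.39 and 2.57. Members over 2-fold apart numbered 0 as reported, 10 with spike-in counts and 2 at a fold minimum of 1.5. Nfil3 turned to 0.17 on TPM and 2.36 with spike-in counts, and Npas2 to 1.85 with spike-in counts; the spike-in rows held only 5717 and 1022 counts. The cause of the gap between spike-in and gene counts was not tested. Leaving out transcripts under 1000 bases, chosen after seeing the data, moved the mean level of Dbp from 44.9 to 27.8 TPM and that of Npas2 from 2.49 to 1.76 TPM, the latter by more than its SD over the pups. Intervals cover counting error only.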

Other observations

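Ratios between clock genes within a library do not depend on how the libraries are scaled, and some were nearly level between the pups while others were not. The log2 TPM ratio of Per2 over Arntl was -1.09 in pup 1 and -1.13 in pup 2, that of Per1 over Arntl 1.01 and 1.11 and that of Arntl over Clock 1.83 and 1.88. The ratio of Nr1d1 over Arntl moved further, from 1.75 to 2.43, as did that of Nr1d1 over Nr1d2, from 0.70 to 1.36. The ratio of Npas2 over Clock changed sign, from 0.95 to -0.24. These pairs were chosen after the values were seen, and with 1 library per pup none of the shifts has a replicate check.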
